A study of Mus musculus with 6 samples.

Results

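The 10 genes described here, Fabp7, Slc1a3, Ednrb, Ptprz1, Ddah1, Acsbg1, Aqp4, Bcan, Tnc and Aldoc, were grouped as genes that radial glia express as they take on glial properties. They were followed among the 17107 named genes measured on 1-colour arrays of mouse embryonic dorsal forebrain, mutant against control. Several were picked because their signal was higher in the mutants, so their differences are given as a description, without a test. Members were found by gene symbol in the authors' deposited table, where 13 probes of 9 genes carried a listed symbol, and by transcript accession, which added 2 probes of Tnc and a second probe of Bcan. Of these 16 probes, 13 probes of 9 genes passed the filter, which asked for a signal well above background on 3 or more of the 6 arrays. Tnc did not.

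Total RNA was taken at E11.5 from 3 control and 3 mutant embryos, each on an array of its own. Each litter, numbered 1 to 3, gave 1 embryo of either group, and embryos carry their litter's number. The labels call the second group mutant. The mutated gene, the alleles, any Cre driver and the strain are not given in the sources used here, and the series title places the study within Wnt/beta-catenin signalling in cortical precursors. The Wnt pathway readouts Lef1 and Axin2 had log2 differences of -1.07 (SE 0.13, limma, adjusted p = 0.0908) and -0.60 (SE 0.19, adjusted p = 0.22). The dorsal forebrain markers Emx1, Emx2, Lhx2, Tbr1, Pax6 and Eomes were well above background on all 6 arrays. Of these, Emx2 (-0.92, SE 0.10, adjusted p = 0.0695), Emx1 (-0.81, SE 0.25) and Lhx2 (-0.58, SE 0.09) were lower in every mutant than in any control, while Pax6 (0.33, SE 0.09) and Eomes (0.38, SE 0.15) were higher in every mutant, and 0 of them passed the adjusted threshold. Their part in the members' levels was not tested. A level is the log2 signal after subtraction of that array's 75th percentile, a difference is the mutant mean less the control mean, and SE is the standard error of the limma fit. This 75th percentile lay between 1446 and 1833 signal units in the controls and between 1207 and 1380 in the mutants, and no spot was saturated. In tissue RNA, more cells of a type and more RNA per cell cannot be told apart.

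Radial glia are the bipolar stem cells of the developing cortex. They arise from neuroepithelial cells, divide at the ventricle to give rise to neurons, and later give rise to astrocytes. In that course they take up genes that astrocytes keep, such as lipid-binding proteins, glutamate transporters and matrix proteoglycans, and several of these genes are already active before neurogenesis peaks. Markers of mature astrocytes follow only around birth. At this stage Gfap was well above background on 1 control and 1 mutant array and S100b on none.

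Of the members in the fit, 6 had bright signals that were higher in every mutant than in any control: Fabp7, Slc1a3, Ednrb, Ptprz1, Ddah1 and Acsbg1. Their differences ranged from 0.69 to 1.39, with a median of 0.86, against a median of 0.02 over all 21083 rows. Aqp4 and Bcan were also higher in all mutants, at low signals that the scanner software still marked as well above background on all 6 arrays, and the Aldoc groups overlapped. Thus 8 of 9 members had groups that did not overlap, with the mutants above. The same held for 12.9% of all rows, and since the members were picked on this contrast nothing is read from the count. In limma over all rows 0 of the 9 passed an adjusted p of 0.05, as did 0.0332% of all rows (7 rows, 2 of them higher), and 8 had positive differences at an unadjusted p under 0.05, as did 9.49% of all rows. With normexp background correction 166 rows passed, 93 of them higher, and with litter as a block, the paired fit, 0 rows passed (4185 at an unadjusted p under 0.05). In the authors' deposited table, made from the same 6 arrays, 6 of the members' 13 probes had an fdr under 0.05 with a positive ratio, against 0.4% of all its probes. These were probes of Fabp7, Slc1a3, Ednrb, Ptprz1 and Ddah1, and they are no independent support.

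Fabp7 encodes brain lipid-binding protein, a fatty acid carrier and a standard marker of radial glia. Controls 1, 2 and 3 had levels of 3.98, 4.04 and 3.72, while mutants 1, 2 and 3 had 5.13, 5.45 and 5.34. The groups were 1.09 apart at their nearest values. The difference was 1.39 (SE 0.13), a 2.63-fold higher signal in the mutants, and it ranked 155th from the top among the 21083 rows. All probe positions are in mm9, as the array's annotation gives them, and that of Fabp7 is chromosome 10, 57508039 to 57508098.

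Slc1a3 encodes the glutamate transporter GLAST, which clears glutamate in radial glia and astrocytes. The control levels, in litter order, were -0.05, -0.03 and -0.21, and the mutant levels 0.49, 1.10 and 1.09. Mutant 1 lay nearest to the controls, 0.52 above the highest of them, while mutants 2 and 3 had nearly the same value. The difference was 0.99 (SE 0.18). Its probe lies on chromosome 15 from 8584236 to 8584295.

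Ednrb encodes the endothelin B receptor, which is found on radial glia and astrocytes and is also needed in neural crest. It has a pair of probes, on chromosome 14 from 104214484 to 104214543 and from 104220870 to 104220929. The brighter gave levels of -0.48, -0.72 and -1.20 for controls 1 to 3 and 0.04, 0.33 and 0.49 for mutants 1 to 3. Control 3 was lowest and mutant 3 highest, and the groups did not overlap. The difference was 1.09 (SE 0.22), and that of the dimmer probe 1.14.

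Ptprz1 encodes a receptor-type tyrosine phosphatase that is also shed as the proteoglycan phosphacan, and it binds pleiotrophin, midkine and contactin. The signal was high throughout, with control levels of 3.17, 3.24 and 2.98 and mutant levels of 3.68, 3.95 and 3.84 in litter order. Its difference of 0.69 (SE 0.11) was the smallest of the 6. The second probe, which lies next to the first on chromosome 6, gave 0.70.

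Both remaining genes of the 6 encode enzymes. Ddah1 breaks down asymmetric dimethylarginine, an inhibitor of nitric oxide synthases, and had control levels of 1.01, 0.70 and 0.42 and mutant levels of 1.33, 1.44 and 1.55. The difference was 0.73 (SE 0.16), and its second probe gave 0.68. Acsbg1, an acyl-CoA synthetase of very long chain fatty acids, had control levels of 0.40, 0.17 and -0.12 and mutant levels of 0.72, 0.84 and 1.04, a difference of 0.72 (SE 0.16). In both genes the controls spread more than the mutants, with control 1 the highest and control 3 the lowest.

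**Figure D1:**
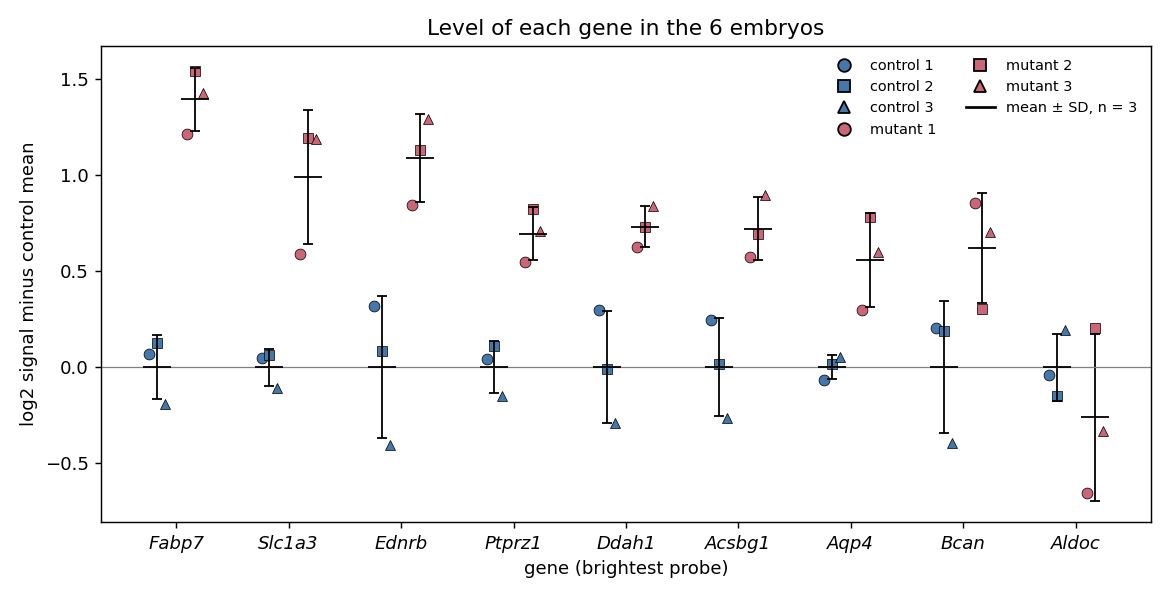
Log2 signal of each of the 9 measured members in the 6 embryos, as the deviation from the control mean, with bars for the mean and SD of 3 embryos. For the first 6 genes, from Fabp7 to Acsbg1, all mutants lie above all controls, with mutant 1 lowest among the mutants and control 3 lowest among the controls, while the Aldoc groups overlap.

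The 6 genes had higher signals together, so the 250 bases before their transcription starts were searched on both strands for motifs of factors known from this tissue. RefSeq windows of GRCm38.p6 were found for 9 of the 10 members, 11 windows in all. These are printed for Fabp7, Ddah1 and Acsbg1, whose windows hold CATCTG, a form of the E-box bound by proneural factors such as neurogenins, in capitals, and for Slc1a3, whose window holds no motif searched. The Fabp7 window is chr10:57784673-57784922 on the plus strand, that of Ddah1 chr3:145758442-145758691 on the plus strand, that of Acsbg1 chr9:54661886-54662135 on the minus strand and that of Slc1a3 chr15:8710808-8711057 on the minus strand.
Fabp7: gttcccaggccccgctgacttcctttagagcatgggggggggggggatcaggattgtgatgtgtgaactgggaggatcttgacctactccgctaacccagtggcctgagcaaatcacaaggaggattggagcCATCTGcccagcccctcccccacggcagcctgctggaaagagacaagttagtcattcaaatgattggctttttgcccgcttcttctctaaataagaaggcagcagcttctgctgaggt
Ddah1: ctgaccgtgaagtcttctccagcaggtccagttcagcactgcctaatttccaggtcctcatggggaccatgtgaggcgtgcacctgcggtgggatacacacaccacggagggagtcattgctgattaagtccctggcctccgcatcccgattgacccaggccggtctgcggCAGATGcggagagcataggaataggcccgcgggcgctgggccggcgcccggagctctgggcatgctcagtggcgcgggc
Acsbg1: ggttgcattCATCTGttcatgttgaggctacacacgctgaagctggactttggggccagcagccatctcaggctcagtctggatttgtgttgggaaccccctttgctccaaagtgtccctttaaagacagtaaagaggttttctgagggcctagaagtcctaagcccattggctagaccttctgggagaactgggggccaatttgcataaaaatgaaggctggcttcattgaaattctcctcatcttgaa
Slc1a3: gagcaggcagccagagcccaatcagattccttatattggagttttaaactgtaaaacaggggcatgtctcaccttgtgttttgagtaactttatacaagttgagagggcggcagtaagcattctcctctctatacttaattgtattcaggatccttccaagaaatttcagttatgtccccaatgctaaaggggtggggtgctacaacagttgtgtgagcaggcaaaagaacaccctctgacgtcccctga

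CATCTG lay from -118 to -113 in Fabp7, from -241 to -236 in Acsbg1 and, on the other strand, from -79 to -74 in Ddah1, counted from the start site. It was in 3 of the 11 member windows and in 14.4% of 32851 windows of the same length. The Wnt effector motif CTTTGA of the TCF/LEF factors was in 1 member window, an alternative start of Aldoc, and in 13.8% of all windows. The windows of the 6 genes thus did not hold these letters. The NFI motif TTGGCA (12.3% of all windows) and the Notch effector motif GTGGGAA of RBPJ (5.415%) were each in 1 window of Tnc and 1 of Aldoc. The SOX motifs ACAAAG (16.5%) and ACAATG (10.69%) and the E-box CAGCTG (13.0%), a form of CANNTG like CATCTG, were in 0 member windows. No match overlapped another. A match is a run of letters, not a site shown to be bound.

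The littermate differences of the 6 genes fell in one order. Litter 1 gave the smallest difference and litter 3 the largest for 6 of 6 genes, and control 3 was the lowest control and mutant 1 the lowest mutant for 6 of 6. Among the 2730 rows whose mutants all lay above the controls, litter 1 was smallest in 46.4%, litter 3 largest in 49.9%, control 3 lowest in 43.2% and mutant 1 lowest in 48.4%. Both litter orders were held by 32.8% and all 4 orders by 16.5%, and 6 of the 6 genes held all 4. A low mutant 1 lowers the litter 1 difference and a low control 3 raises that of litter 3, so the orders depend on one another. The genes were also read in the same 6 embryos and several were picked for rising, so nothing is read from these shares. The differences in litters 1, 2 and 3 were 1.15, 1.42 and 1.61 for Fabp7, and 0.54, 1.13 and 1.30 for Slc1a3. They were 0.52, 1.05 and 1.70 for Ednrb, and 0.51, 0.71 and 0.86 for Ptprz1. All were positive, and Fabp7 varied least between litters relative to its size. For Ddah1 they were 0.33, 0.74 and 1.13, and for Acsbg1 0.33, 0.67 and 1.16, so that litter 3 differed over 3 times as much as litter 1 in both.

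**Figure D2:**
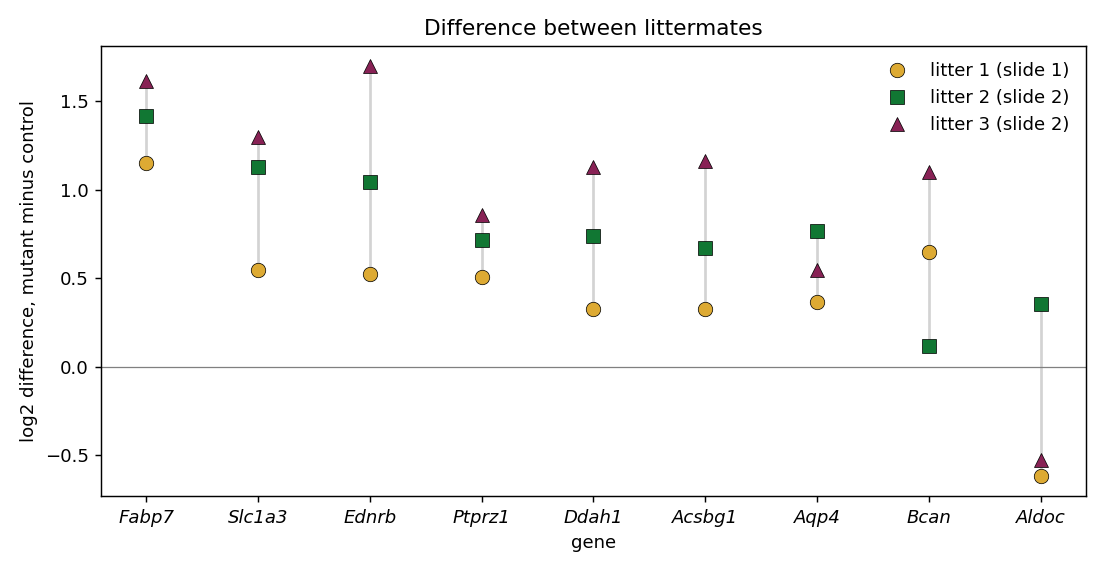
Log2 difference, mutant minus control, of each measured member within litters 1, 2 and 3, of which litter 1 was on slide 1 and the other litters on slide 2. For the 6 genes from Fabp7 to Acsbg1 litter 1 is lowest and litter 3 highest, and for Aldoc litter 2 alone is above 0.

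Litter 1 was also the pair on slide 1, so that litter and slide cannot be told apart there. The differences within slide 1 are those of litter 1, and within slide 2 they were 1.52 for Fabp7, 1.21 for Slc1a3, 1.37 for Ednrb, 0.79 for Ptprz1, 0.93 for Ddah1 and 0.92 for Acsbg1. In litter 1 the scaling weighs most, since the 75th percentile was 1833 in control 1 and 1319 in mutant 1. Before scaling, the processed signal of Ddah1 was 3684 units in control 1 and 3325 in mutant 1, and that of Acsbg1 2410 and 2175. The unscaled signals were also close for Slc1a3 (1768 and 1855), Ednrb (1313 and 1357) and Ptprz1 (16520 and 16890). For Fabp7 the signal was 28930 in control 1 and 46130 in mutant 1.

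Aqp4 and Bcan were dim, although both Aqp4 probes and the Bcan probe in the fit were well above background on 3 of 3 control and 3 of 3 mutant arrays. Aqp4 encodes the water channel of astrocyte endfeet, and its brighter probe had control levels of -5.50, -5.42 and -5.38 and mutant levels of -5.14, -4.65 and -4.84, between 34.6 and 54.8 signal units before scaling. Its difference was 0.56 (SE 0.13), and its second probe gave 0.55. Bcan, the matrix proteoglycan brevican, had control levels of -5.47, -5.49 and -6.07 and mutant levels of -4.82, -5.38 and -4.98, and its difference was 0.62 (SE 0.22). Mutant 2 was only 0.10 above the nearest control. A second Bcan probe, for another transcript (NM_001109758), was well above background on 1 control array and no mutant array.

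Tnc encodes tenascin-C, a matrix glycoprotein of radial glia and astrocytes, and neither of its probes was well above background on any array. Its measured differences of 0.57 and 0.70 therefore describe signals that were not well above background. The 10141 probes well above background on no array had a median difference of 0.55 under the same scaling, which was as large as that of Aqp4 and close to that of Bcan. With quantile normalization this median was 0.04, Aqp4 was at 0.41 and 0.38, Bcan at 0.45, and Tnc at 0.06 and 0.24. With normexp the median was 0.30, Aqp4 was at 0.39 and 0.46, and Bcan at 0.44. For the pair of Aqp4 probes the authors' deposited table has log2 ratios of 0.20 and 0.25, and for Bcan 0.33. The differences of the 6 brighter genes moved by at most 0.09 from the 75th percentile scaling, median centring included, with Fabp7 between 1.31 and 1.42.

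**Figure D3:**
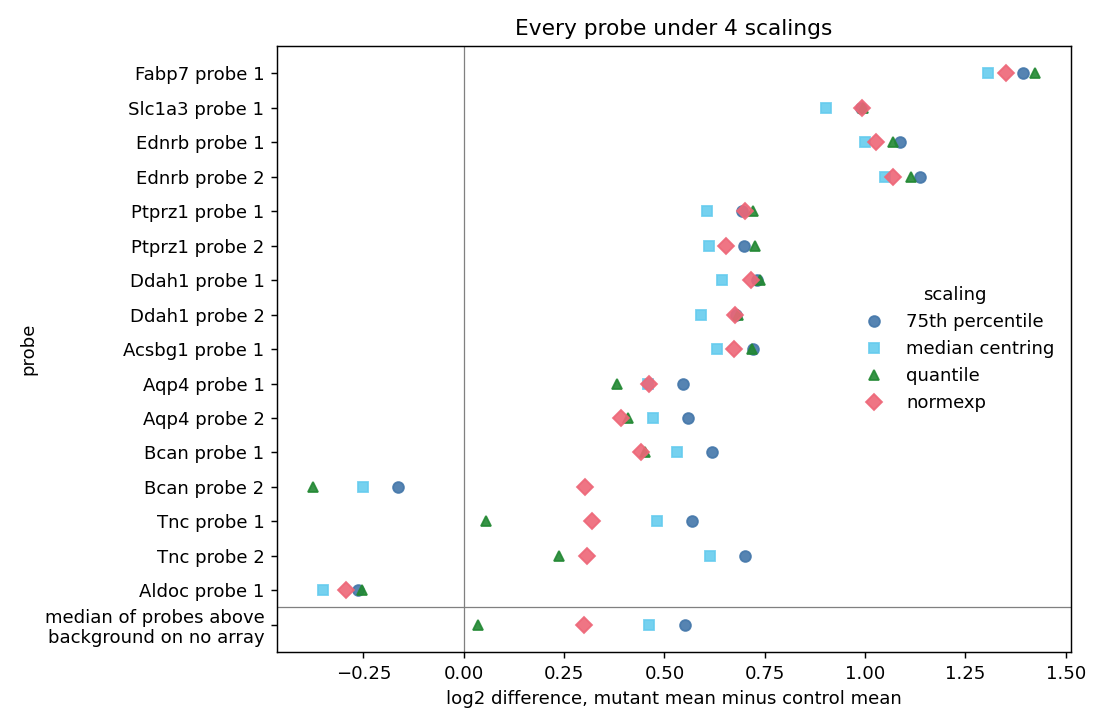
Log2 difference, mutant mean minus control mean, of all 16 probes of the 10 genes under 4 ways of scaling the arrays, with the median of 10141 probes that were above background on no array in the last line. The probes of Fabp7 to Acsbg1 keep to a narrow range, while those of Tnc shift with that median. The Aqp4 probes and Bcan probe 1 shift less than that median does.

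Aldoc, the brain aldolase of glycolysis and a later marker of astrocytes, did not share the pattern of the 6. The control levels were 1.11, 0.99 and 1.34 and the mutant levels 0.49, 1.35 and 0.81, in litter order. The groups overlapped, and mutant 2 was the highest of all 6 embryos by a small margin. The difference was -0.26 (SE 0.23), with -0.62, 0.35 and -0.52 in litters 1, 2 and 3.

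Control 3, the lowest control for each of the 6 genes, stood apart in markers of the subpallium, the neighbouring ventral territory. Set against the mean of the controls, 7 subpallial genes had medians of 1.14, 0.85 and -2.05 for controls 1, 2 and 3, and of 1.41, 0.85 and 1.94 for mutants 1, 2 and 3. The homeobox gene Dlx2, for example, had control levels of 1.87, 1.58 and -1.27 and mutant levels of 2.16, 1.58 and 2.74. Their summed level, in units of the array's 75th percentile, ranged from 1.21 to 7.68 in the controls and from 6.27 to 12.4 in the mutants, and Nkx2-1 was above background on no array. Without control 3 the differences were 1.30 for Fabp7, 0.93 for Slc1a3, 0.89 for Ednrb, 0.62 for Ptprz1, 0.59 for Ddah1 and 0.59 for Acsbg1. The subpallial genes' part in the order of the controls was not tested beyond these values.

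Mutant 1, the lowest mutant for each of the 6 genes, was also the lowest for neuronal markers. The median of 10 neuronal genes was 0.09, 0.44 and 0.51 in mutants 1, 2 and 3 and 0.10, 0.00 and -0.11 in controls 1, 2 and 3, and their summed level ranged from 61.6 to 65.9 in the controls and from 69.7 to 98.1 in the mutants. All 10 had positive differences, and 0 of 10 passed in limma over all rows, while 5 of 10 reached an unadjusted p under 0.05. Of all rows, 9.49% were higher at that level. Mutant 1 was the highest mutant for meningeal genes (1.04, against -0.25 and -0.72 in mutants 2 and 3) and for choroid plexus and roof plate genes (1.79, against 0.98 and -0.18). Their summed levels ranged from 19.1 to 28.8 in the controls and from 13.8 to 41.8 in the mutants for the 8 meningeal genes, and from 1.21 to 3.345 and from 2.58 to 7.21 for 7 of 8 choroid plexus and roof plate genes. Ttr, the defining choroid plexus gene, was above background on 1 mutant array and no control array. Its levels were -8.48, -3.94 and -8.975 in mutants 1, 2 and 3, so it was highest in mutant 2, not mutant 1. Clic6 (-2.53 and -1.97 in mutants 1 and 2) and Kcnj13 (-5.13 and -4.36) were also higher in mutant 2. The other measured genes of that list were higher in mutant 1 than in mutant 2. Summed levels of 8 endothelial genes ranged from 6.89 to 8.06 in the controls and from 5.42 to 8.35 in the mutants, and those of 8 microglial genes from 2.45 to 2.98 and from 1.89 to 3.19. Mutant 3 was lowest for endothelial genes (-0.40, against 0.18 and 0.02 in mutants 1 and 2). It was also lowest for 6 erythroid genes (-0.85), whose summed level was 457 there and from 655 to 749 in the controls. The median of 10 dorsal forebrain genes was -0.06, 0.13 and 0.35 in mutants 1, 2 and 3 and -0.02, -0.03 and 0.03 in controls 1, 2 and 3. The part of any of these cells in the members' levels was not tested.

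Ednrb and Fabp7 are also expressed by neural crest cells and Schwann cell precursors, and Ptprz1 and Bcan by oligodendrocyte precursors. Of 9 neural crest and Schwann markers 5 were measured, with medians between -0.05 and 0.00 in the controls and between -0.20 and 0.00 in the mutants. Their summed level was from 3.06 to 4.175 in the controls and from 1.86 to 3.32 in the mutants. That sum was mostly Dct, with control levels of 1.31, 1.67 and 1.85 and mutant levels of 1.05, 1.47 and 0.34. The other measured genes of the list were dimmer on every array, so the sum describes Dct more than the list. Foxd3, Erbb3 and Tyrp1 were above background on no array, and Sox10 had a difference of 0.09 (SE 0.10). Of the 6 oligodendrocyte precursor markers 0 passed in limma over all rows, and 0 had an unadjusted p under 0.05, although all 6 differences were positive. Their median was 0.45, 0.24 and -0.64 in controls 1, 2 and 3 and 0.80, -0.04 and 0.75 in mutants 1, 2 and 3. Their summed level ranged from 0.371 to 0.692 in the controls and from 0.583 to 1.14 in the mutants. In mutant 1, which had the largest sum, Pdgfra was the brightest of them, at -0.50 against -2.06 and -2.355 in mutants 2 and 3. Mutant 1 was also the highest mutant for meningeal genes. Olig1 (-8.33) and Olig2 (-4.61) were lowest in control 3, as were the subpallial genes. Which cells gave these signals was not tested.

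**Figure D4:**
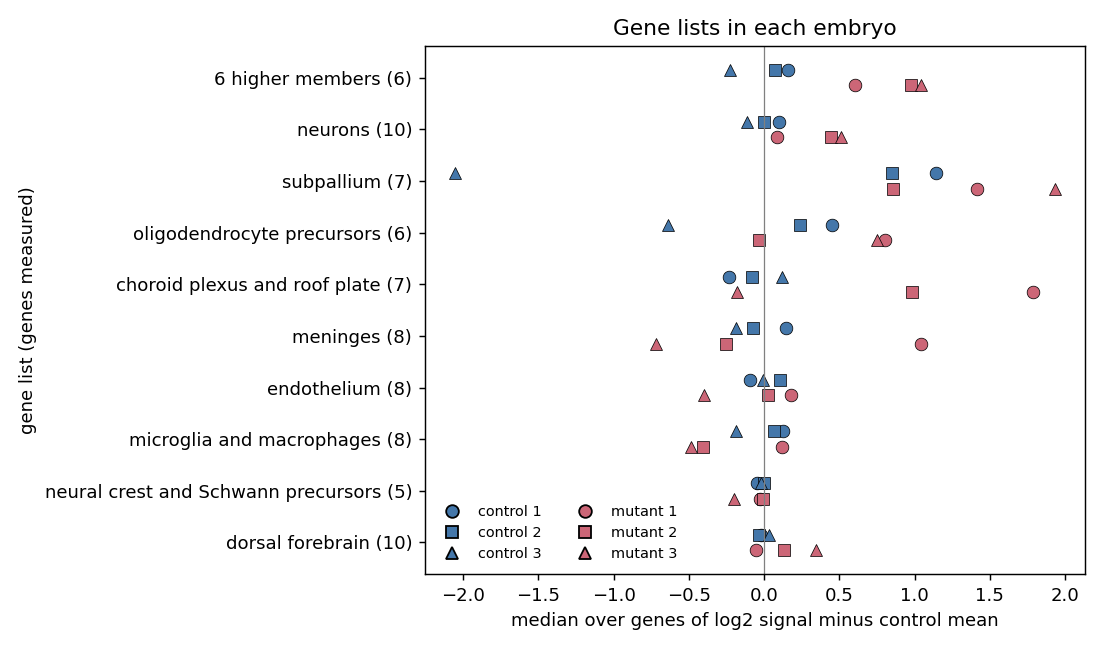
Median over the genes of each list of the log2 signal minus the control mean, for each embryo, with the number of genes measured in parentheses. The 6 members higher in all mutants are in the first line, and control 3 stands apart at -2.05 for subpallial genes. By these medians mutant 1 is the lowest mutant for neurons and the highest for meninges and for choroid plexus and roof plate. Single genes of the last list, such as Clic6, were higher in mutant 2.

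Other genes of astroglia had differences on both sides of 0. Of 40 listed genes 38 were measured, and 0 passed in limma over all rows, 10 had positive and 2 negative differences at an unadjusted p under 0.05 (26.3% and 5.26%, against 9.49% and 7.44% of all rows). The count of 12 such genes was 3 without control 3, 6 without mutant 2 and 5 with median centring. In these settings 1913, 2738 and 3426 of all rows reached that p, against 3570 in the main fit. The count was 16 without mutant 1 and 14 with normexp, where 4514 and 6376 of all rows did. The median difference of the 38 genes was 0.12, and 0.04 with median centring. By p the first were the lipid hydrolase Pla2g7 (-0.86, SE 0.12, adjusted p = 0.104), the metallothionein Mt3 (0.69, SE 0.14, 0.152), the proteoglycan Cspg5 (0.70, SE 0.16, 0.162) and brain creatine kinase Ckb (0.21, SE 0.07, 0.222). Pla2g7 alone passed with normexp. The second glial glutamate transporter, Slc1a2, had a difference of 0.51 (SE 0.18) and glutamine synthetase, Glul, of 0.34 (SE 0.12). The astrocyte connexins Gjb6 (-0.61, SE 0.22) and Gja1 (-0.36, SE 0.17) were lower in every mutant than in any control. Gjb6 was dim, and well above background on 3 control and 2 mutant arrays. In all, 10 of the 38 genes were higher in every mutant than in any control, Slc1a2 and Glul among them, and 4 were lower. The share of all rows was 12.9% higher and was not computed for lower, and nothing is read from these counts.

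General markers of radial glia and neuroepithelium had differences on both sides of a median near 0. Of 25 genes 0 passed in limma over all rows, with 3 positive and 2 negative at an unadjusted p under 0.05 (12.0% and 8.0%). The median was 0.02, or -0.07 with median centring. In every mutant 4 genes were higher and 6 lower than in any control. Of all rows 12.9% were higher in this way, the share lower was not computed, and nothing is read from these counts. Sox2, a transcription factor of neural stem cells, had a difference of 0.05 (SE 0.07), and the intermediate filament genes Nes and Vim had differences of 0.18 (SE 0.13) and 0.23 (SE 0.09). The transcriptional regulator Dach1 (-0.59, SE 0.12, adjusted p = 0.153) and the chromatin protein Hmga2 (-0.36, SE 0.08, adjusted p = 0.171) had the smallest p, followed by Numbl (0.30) and N-cadherin, Cdh2 (0.29).

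Regulators of gliogenesis had positive and negative differences. Of 36 genes 0 passed in limma over all rows, 11 had positive and 4 negative differences at an unadjusted p under 0.05 (30.6% and 11.1%, against 9.49% and 7.44% of all rows), and the median was 0.02, or -0.07 with median centring. Nfix, a nuclear factor I gene of late radial glia, had a control mean of 0.67 ± 0.22 and a mutant mean of -1.07 ± 0.19 (SD, n = 3), a difference of -1.74 (SE 0.15, limma, adjusted p = 0.0547). It passed in 6 of 18 other settings, normexp and quantile normalization among them. Its relatives Nfib and Nfia, which promote astrocyte genes, had differences of -0.66 (SE 0.18) and -0.43 (SE 0.18). Lhx2 (-0.58, SE 0.09, adjusted p = 0.105), which holds back gliogenesis in the hippocampus, passed with normexp and with trend and robust variance. The kinase Jak2 had a difference of 0.38 (SE 0.08, adjusted p = 0.154), and the neuregulin receptor Erbb4 of 0.72 (SE 0.16, 0.168). Sox8, next by p, had the largest positive difference of the list, 1.33 (SE 0.30, limma, adjusted p = 0.168), and passed with normexp. Sox9, a factor of glial competence, had a difference of 0.27 (SE 0.09).

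Among paralogs, ligands and partners of the members, 31 of 41 were measured and 0 passed in limma over all rows, with 5 positive and 4 negative at an unadjusted p under 0.05 (16.1% and 12.9%) and a median of 0.02, or -0.07 with median centring. The transporters Slc1a6 and Slc1a5, of the same family as Slc1a3, had differences of -1.01 (SE 0.13, adjusted p = 0.1) and -0.66 (SE 0.14, adjusted p = 0.152), opposite in sign to that of Slc1a3. Slc1a6 passed with normexp and with trend and robust variance. Fabp3, a fatty acid carrier related to Fabp7, had a difference of 0.56 (SE 0.11, adjusted p = 0.15). The Ptprz1 ligand pleiotrophin, Ptn, had control levels of 2.26, 1.91 and 1.45 and mutant levels of 3.02, 3.98 and 3.04 (1.47, SE 0.33, adjusted p = 0.166), while its other ligand midkine, Mdk, had a difference of -0.28 (SE 0.09, adjusted p = 0.235). The Ednrb ligand Edn1 was dim, with a difference of 0.83 (SE 0.23) that was 0.22 at the lowest among the settings.

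**Figure D5:**
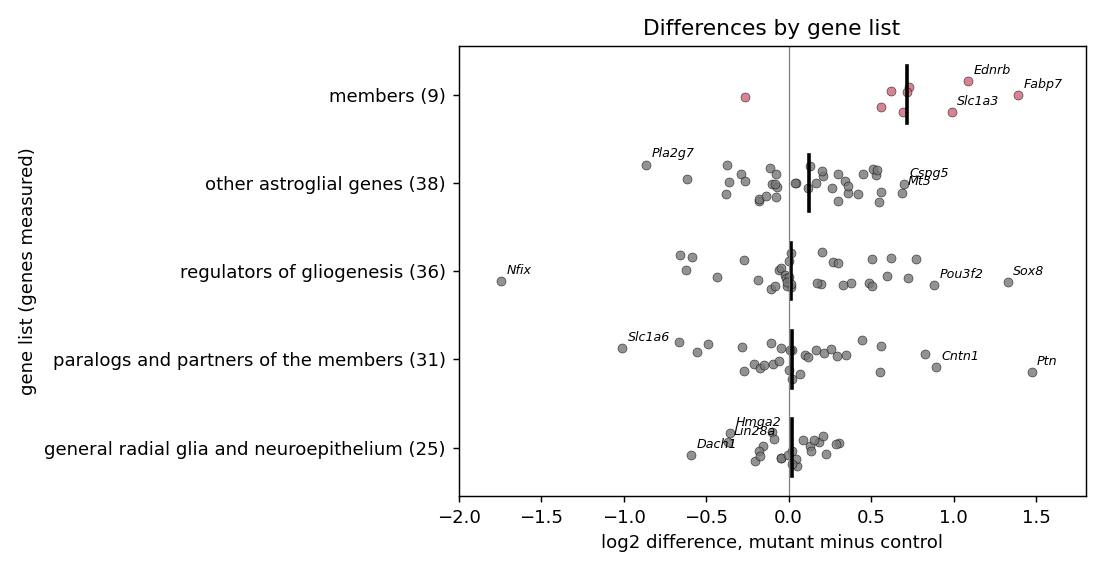
Log2 difference, mutant minus control, of each measured gene of 5 lists, with a bar at the list's median and the names of the 3 genes farthest from 0. The members were picked partly on this difference and have a median of 0.72, while the other lists have medians between 0.02 and 0.12 (between -0.07 and 0.04 with median centring) and spread to both sides.

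The profile over the 6 arrays that was most like the mean of the 9 members was sought among 15884 named genes above background on all arrays. The closest by Pearson's r were Lingo4 (0.997), a leucine-rich repeat protein, the zinc-finger gene Zkscan14 (0.996), the natriuretic peptide receptor Npr2 (0.995), the Wnt ligand Wnt7a (0.995) and Pkd1 (0.994), the gene of polycystin. These arrays share group, litter and slide, and 683 genes had an r over 0.9, so the values only describe likeness. For Wnt7a the control levels were 0.22, 0.20 and 0.01 and the mutant levels 0.59, 0.92 and 0.94. Of the members themselves, r to that mean was between 0.968 and 0.990 for the 6 genes, 0.912 for Aqp4, 0.766 for Bcan and -0.32 for Aldoc. Each member is part of that mean and several were picked for rising, so high values were built in and are no support.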

How the data were processed

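The deposited scanner files hold spot intensity on a linear scale from 1-colour (Cy3) arrays of design 026655. Per the file headers, the authors used Agilent Feature Extraction 10.7.3.1 and an mm9 grid, and its processed signal has the background subtracted but no scaling between arrays. Other deposited columns are flags of 0 or 1 for each spot. The authors' deposited table gives log2 values per probe, log2 ratios and a column headed fdr. How it was scaled is unknown here. The submitters' processing notes name limma.

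Outlier spots were left out, spots of a probe averaged, and log2 signals scaled by the 75th percentile of each array. A probe had to be well above background on 3 or more arrays (26864 probes), and the brightest probe represented a gene (21083 rows). Probes were named through RefSeq accessions of GRCm38.p6 (26581 probes) or by the symbols of the authors' table. Mutants were set against controls in limma 3.58.1 (lmFit, then eBayes; R 4.3.3; Benjamini-Hochberg over all rows, threshold 0.05, two-sided), tested on simulated data. Python 3.11.15, pandas 2.3.3 and matplotlib 3.10.9 were used. The number of arrays limits precision.

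The members and lists were chosen with earlier results of these data known. Named were all members, the first 4 genes by p of each list on radial glia, gliogenesis or partners, Lef1, Axin2, and the 5 genes most like the members' mean. Gfap, S100b, Slc1a2, Glul, Gjb6, Gja1, Emx2, Pax6, Eomes, Sox2, Nes, Vim, Nfia, Nfib, Sox8, Sox9, Sox10, Dlx2, Emx1, Tbr1, Mdk, Edn1, Clic6, Kcnj13, Pdgfra, Olig1, Olig2 and Dct, and marker genes named as absent, were named after their values were seen. Litters pair the embryos, per the labels. Littermates deviated together from their groups (r = 0.308, 0.357 and 0.106 over rows). Alternatives were other background correction, scaling, filters, probe averaging, litter or slide as a block, another variance model, the authors' log2 values and omission of each embryo. Slide 2 alone, and litter blocking together with a variance trend, were added after seeing the data. Normexp (offset 50) used the median signal.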

Additional observations from a re-analysis of the deposited data

How the results depend on the processing

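Over all rows, 7 passed. The count was 166 with normexp, 143 with trend and robust variance, 23 with the filter on all 6 arrays, 22 each with median centring and the authors' log2 values, 15 with quantile normalization, 2 with probes averaged per gene, and 0 with no filter, litter as a replicate block or slide as a block. On slide 2 alone it was 0, and 2 with the litter block and trend and robust variance. Leaving out 1 embryo gave 0 to 1, the 1 without mutant 1. At an unadjusted p under 0.05 the litter block had 4185 rows, the slide block 4147, no filter 7915 and slide 2 alone 3842. The cause was not tested. Among the members, Fabp7 passed with normexp, median centring, the filter on all 6 arrays, trend and robust variance and the authors' log2 values, and Ptprz1 with normexp and with trend and robust variance. The litter block left each member's difference as it was, since the pairs are balanced.

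The median difference of the 9 members was 0.72, between 0.587 (without control 3) and 0.843 (without control 1) with 1 embryo left out, and 0.916 on slide 2 alone. The sign of each member's difference was the same in all 18 alternatives. Those that changed only the filter, the block or the variance model left every member's difference as it was, so the sign could not change there. Since several members were picked for rising in this contrast, nothing is read from the count. Aqp4 moved by more than its spread between embryos in 1 of them, the authors' log2 values (0.25). The median of the other astroglial genes was 0.12, and 0.04 both with median centring and without control 3.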
